A study of Homo sapiens with 6 samples.

Results

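MALAT1, NEAT1, H19, PVT1, HOTAIR, UCA1, CCAT1, LUCAT1, HULC and MEG3 are long non-coding RNAs (lncRNAs) that have been studied for their links to cancer, several of them in liver cancer. These 10 genes were chosen by name, with earlier results of these data known. They were looked up by symbol in a table of 60623 genes from cells in which the splicing factor SRSF10 was knocked down. A row was found for 8 of the 10, and no symbol was repeated. CCAT1 and HULC had no row under their own symbols and are not analysed here as members, although a row whose identifier a reference table pairs with HULC is described with the scarce genes. Of the 8 with a row, 4 passed the filter of the test, at least 1 FPKM in at least 3 libraries.

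The cells were labelled Huh7, a human hepatocellular carcinoma line, and bulk RNA-seq had been done on 6 libraries. The 3 knockdown libraries carry a genotype label of SRSF10 knockdown and titles that start with SH, and the series title names a short hairpin RNA against SRSF10. The 3 control libraries are labelled WT and have titles that start with NC. Nothing in the labels says if these cells carried a hairpin of their own, so the hairpin and lower SRSF10 cannot be told apart. No label says whether the libraries of a group came from separate cultures, so a p-value here covers only the spread among the libraries, which may be technical. Values are FPKM, which scale fragments to gene length and to library size, so levels of different genes also depend on the length annotated for each.

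SRSF10 itself had 10.6, 10.8 and 10.6 FPKM in the knockdown libraries, against 18.6, 19.5 and 19.8 FPKM in the control libraries (-0.80 on the log2 scale, limma adjusted p = 0.000166). Estimated depth was 12720000 to 14350000 fragments per library, and 27.5% to 29.7% of all FPKM came from mitochondrially encoded genes. Of 13 hepatocyte markers, 5 passed the filter of 1 FPKM, with 0 higher and 0 lower by limma (also 0 and 0 at an unadjusted p below 0.05). With a filter of 0.1 FPKM, 2 of 9 were higher by limma, against 7.29% of all genes tested there. The keratins KRT8 and KRT18 stood at 436 and 179.9 FPKM in the knockdown and at 440.0 and 189 FPKM in the control. APOA2, TTR and GPC3 were listed at 0 in all 6 libraries, albumin (ALB) averaged 0.624 FPKM in the knockdown and 0.150 FPKM in the control, SERPINA1 averaged 0.623 FPKM in the knockdown and 0.106 FPKM in the control, and APOB averaged 0.386 FPKM in the knockdown and 0.593 FPKM in the control. Summed over 4 endothelial markers, the level was 9.46 to 10.8 FPKM in the knockdown and 5.43 to 6.13 FPKM in the control. KDR averaged 3.09 FPKM in the knockdown and 0.502 FPKM in the control and passed the filter through the knockdown libraries alone. PECAM1 was higher by 0.33 (limma adjusted p = 0.0373), a call lost without knockdown replicates 1 and 2 (0.111 and 0.109), without control replicates 2 and 3 (0.0621 and 0.0657) and with a lower filter or none (0.0631 and 0.113), while VWF and CDH5 stayed under 0.1 FPKM in every library. Summed over 6 fibroblast markers, the level was 9.55 to 10.5 FPKM in the knockdown and 4.12 to 5.21 FPKM in the control. Most of that sum was LUM (higher by 0.96, limma adjusted p = 0.000928). Of 5 blood cell markers, 0 passed the filter, and their sums were 0.255 to 0.686 FPKM in the knockdown and 0.152 to 0.242 FPKM in the control. The part of these differences in the results on lncRNAs was not tested.

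Nuclear lncRNAs work largely through the proteins they gather. NEAT1 is the scaffold of paraspeckles, nuclear bodies that hold RNA-binding proteins of the NONO and SFPQ family, and MALAT1 accumulates in nuclear speckles together with splicing factors. H19 and MEG3 are imprinted genes, PVT1 lies beside the oncogene MYC, HOTAIR is transcribed from the HOXC cluster and has been linked to the Polycomb complex PRC2, and LUCAT1 was described as a stress-induced RNA under the control of NRF2. UCA1 was first described in bladder cancer and HULC in liver cancer.

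The ends of NEAT1 and MALAT1 are shown because they set which forms of these RNAs exist. NEAT1 is made as a short form that ends at a poly(A) site and a long form whose end is cut by RNase P. A single FPKM value covers both forms, so the values that follow do not separate them. The last 60 bases of the short transcript NEAT1-208 (chr11:65426454-65426513, plus strand, GRCh38, GENCODE 29) hold the poly(A) signal AATAAA, in capitals.
NEAT1-208 end: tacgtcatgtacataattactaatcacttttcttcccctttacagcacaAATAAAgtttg
The last 90 bases of the long transcript NEAT1-202 (chr11:65445451-65445540) hold a T-rich run and, at the very end, an A-rich run, both in capitals. Another T-rich stretch, tttctttt, stands near the start of these bases and was not marked, since only the runs in capitals were searched for.
NEAT1-202 end: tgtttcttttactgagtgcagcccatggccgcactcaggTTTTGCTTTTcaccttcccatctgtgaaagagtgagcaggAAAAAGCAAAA
The same A-rich run, with a pair of T-rich runs before it, stands in MALAT1-202 at chr11:65506007-65506116, with all 3 runs in capitals.
MALAT1-202 inner stretch: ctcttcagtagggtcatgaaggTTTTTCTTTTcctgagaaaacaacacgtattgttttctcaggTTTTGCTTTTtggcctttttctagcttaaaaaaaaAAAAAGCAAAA
In both genes the T-rich and A-rich runs pair into a triple helix that protects the RNA where RNase P has cut it. In MALAT1-202 that point lies 353 bases before the annotated end of the transcript, which has a poly(A) signal of its own (chr11:65506410-65506469, AATAAA in capitals).
MALAT1-202 end: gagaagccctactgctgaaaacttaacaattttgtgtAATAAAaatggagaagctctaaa

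Levels of the 8 genes covered a wide range. MALAT1 was the highest of the 18824 rows typed as lncRNA or ncRNA and rank 65 of all rows, with a mean of 277 FPKM over the 6 libraries. NEAT1 came next (19.3 FPKM), then LUCAT1 (2.98 FPKM), PVT1 (1.87 FPKM) and H19 (0.977 FPKM). HOTAIR (highest library 0.199 FPKM), UCA1 (0.0568 FPKM) and MEG3 (0.0101 FPKM) were near the limit of detection. MALAT1 had 14.4 times the mean FPKM of NEAT1, and LUCAT1 had 1.60 times that of PVT1 without any overlap between their libraries. Annotated exon bases were 16538 for LUCAT1 and 5493 for PVT1, against longest transcripts of 3066 and 1699 bases. FPKM ratios between genes depend on such lengths and do not count molecules. The libraries of PVT1 and H19 overlapped, as did those of HOTAIR, UCA1 and MEG3.

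**Figure D1:**
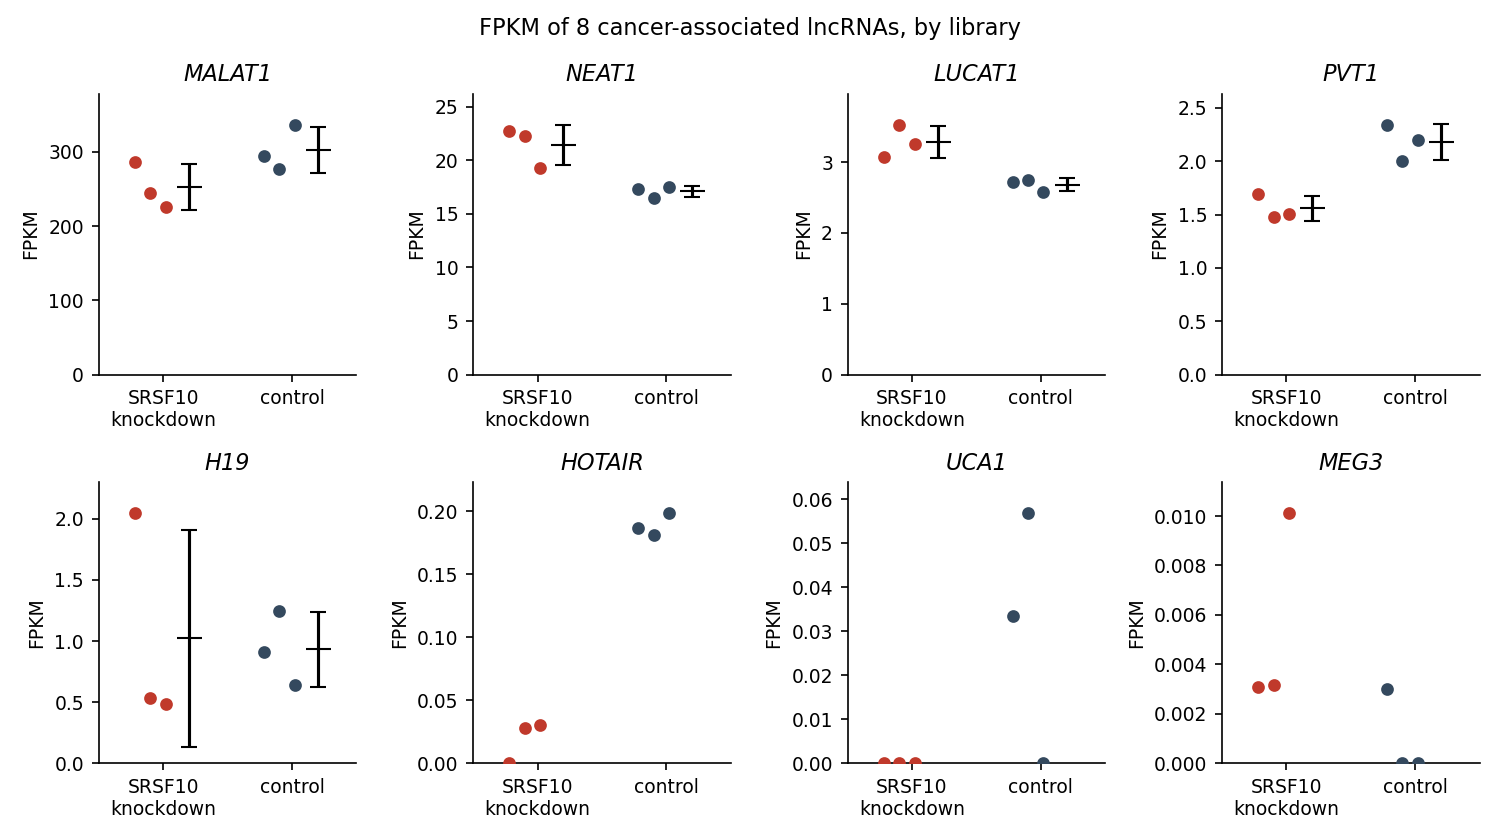
FPKM of the 8 lncRNAs with a row (vertical axes, each with its own scale from 0), in 3 SRSF10 knockdown libraries (red) and 3 control libraries (blue). Each point is a library and black marks are the mean and SD where no library was listed at 0. NEAT1 and LUCAT1 were higher in every knockdown library, PVT1 and HOTAIR were lower in every knockdown library, and MALAT1, H19 and UCA1 overlapped. MEG3 was also higher in every knockdown library, on at most 3 estimated fragments in a library.

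Among the 4 genes tested, NEAT1 and LUCAT1 were higher in the knockdown, PVT1 was lower, and MALAT1 did not pass the test. Over all 12191 tested genes, 12.6% were higher and 12.5% lower at the same threshold, a limma adjusted p below 0.05. Among the 907 lncRNA and ncRNA genes tested, 74 (8.16%) were higher and 66 (7.28%) lower, with a median difference of -0.01 on the log2(FPKM + 1) scale, the same to 2 decimals as over all tested genes. With 4 genes no share can be read against these.

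NEAT1 (ENSG00000245532, chr11:65422774-65445540, plus strand) had 22.8, 22.2 and 19.2 FPKM in the knockdown libraries, against 17.3, 16.5 and 17.5 FPKM in the control libraries. Every knockdown library was above every control library, as for 20.6% of all tested genes, and the third was the lowest of the knockdown group. The means were 21.4 ± 1.90 FPKM in the knockdown and 17.1 ± 0.528 FPKM in the control (SD, n = 3 each), 25.1% higher. On the log2(FPKM + 1) scale NEAT1 rose by 0.30 ± 0.0657 (SE, limma adjusted p = 0.0169), with a 95% interval of 0.15 to 0.46. The exact two-sided permutation test gave p = 0.1, the smallest that 3 against 3 libraries allow. As in all bulk samples, a change in RNA per cell cannot be told apart from a change in the make-up of the cells. The adjusted p was 0.0533 without knockdown replicate 1, 0.0595 without knockdown replicate 2 and 0.0503 without control replicate 2, where the differences were 0.26, 0.28 and 0.28, and 0.0554 with no filter on low values.

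Genes for paraspeckle proteins were lower in the knockdown or not past the threshold. Of 21 listed and tested with limma, 0 rose and 6 fell (0 and 10 at an unadjusted p below 0.05), with a median difference of -0.07. Over all tested genes 12.6% were higher and 12.5% lower, 18.2% and 19.3% at an unadjusted p below 0.05, and the median was -0.01. This list and the lists below were chosen with earlier results of these data known, so their counts are a description. Core proteins of the NONO and SFPQ family, which dimerise on NEAT1, were not past the threshold. The 4 with the smallest adjusted p were EWSR1, NUDT21, CPSF6 and CPSF7. EWSR1, an RNA-binding protein of the FET family, averaged 23.8 ± 0.564 FPKM in the knockdown and 28.4 ± 0.386 FPKM in the control (-0.25, limma adjusted p = 0.00335). NUDT21, CPSF6 and CPSF7 form the cleavage factor CFIm, which promotes the short, polyadenylated form of NEAT1 shown above. NUDT21 averaged 17.5 ± 0.144 FPKM in the knockdown and 20.7 ± 0.599 FPKM in the control (-0.23, limma adjusted p = 0.00509). CPSF6 averaged 21.1 ± 0.454 FPKM in the knockdown and 24.7 ± 0.570 FPKM in the control (-0.22, limma adjusted p = 0.00578). CPSF7 averaged 20.1 ± 0.408 FPKM in the knockdown and 23.2 ± 0.645 FPKM in the control (-0.20, limma adjusted p = 0.00959). HNRNPK, which opposes that poly(A) site by holding NUDT21 away from CPSF6, had 139.6 ± 0.375 FPKM in the knockdown and 147 ± 2.74 FPKM in the control, with an adjusted p of 0.125 by limma. EWSR1, NUDT21, CPSF6 and CPSF7 stayed past the threshold in all 13 alternatives run.

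MALAT1 (ENSG00000251562, chr11:65497688-65506516, plus strand) lies close to NEAT1 on the same strand. It had 286, 244 and 226 FPKM in the knockdown libraries, against 294, 277 and 337 FPKM in the control libraries. The first knockdown library lay inside the control range, so the groups overlapped. The means were 252 ± 30.9 FPKM in the knockdown and 303 ± 30.7 FPKM in the control (SD, n = 3 each). The difference was -0.26 ± 0.102 on the log2 scale (SE), with a 95% interval of -0.51 to -0.02 before adjustment, an adjusted p of 0.108 by limma and an exact permutation p of 0.2. Without knockdown replicate 1 the difference was -0.36 and passed the threshold (limma adjusted p = 0.0431), which held in none of the other 12 alternatives. A measured difference stands beside this result. RN7SL1, an RNA without a poly(A) tail, had 12.4, 13.5 and 14.1 FPKM in the knockdown libraries, against 36.5, 21.8 and 25.9 FPKM in the control libraries (limma adjusted p = 0.00705). Of 18 such RNAs, 12 were listed at 0 in all 6 libraries. The sum of the list was 15.2 to 16.5 FPKM in the knockdown and 24.2 to 41.7 FPKM in the control, and most of it was RN7SL1. SNORD3A, the other RNA of the list that was tested, was not past the threshold (-0.25, limma adjusted p = 0.512). The mature end of MALAT1 has no poly(A) tail, and the long form of NEAT1 is also cut by RNase P. The part of the RN7SL1 difference in the levels of MALAT1 and NEAT1 was not tested. Exons of AP000769.2 on the opposite strand overlap MALAT1, and how strand was treated in counting is unknown here.

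**Figure D2:**
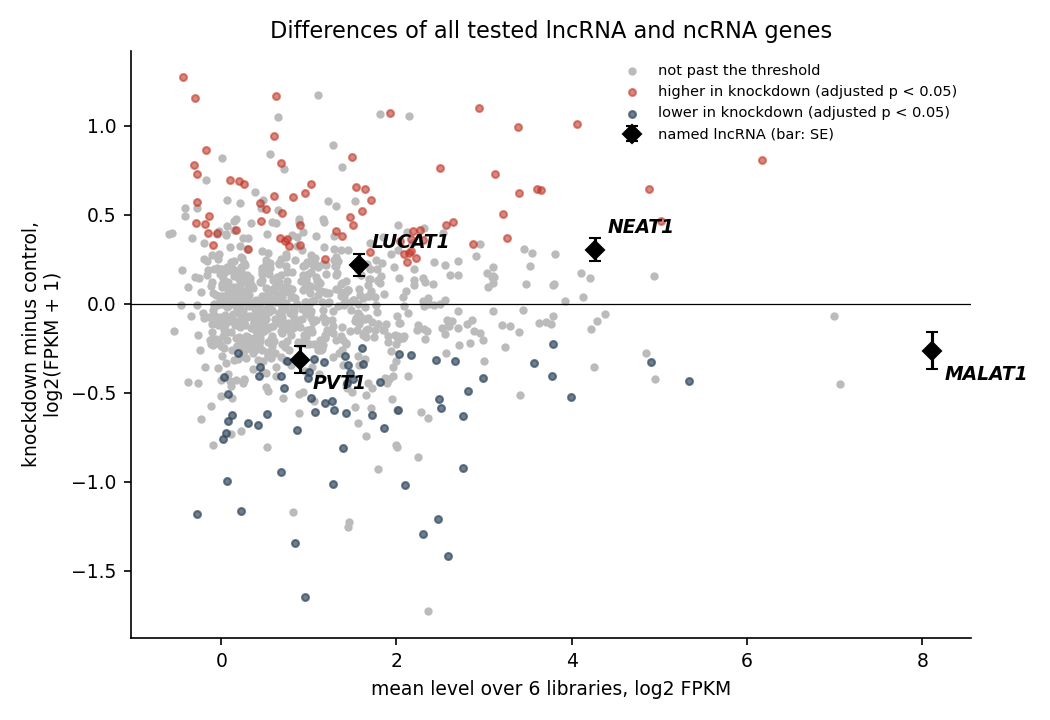
Difference between SRSF10 knockdown and control on the log2(FPKM + 1) scale (vertical axis) against mean level in log2 FPKM (horizontal axis) for the 907 tested lncRNA and ncRNA genes. Red and blue points passed a limma adjusted p of 0.05 as higher (74) and lower (66) in the knockdown, grey points did not, and black diamonds with SE bars are the 4 tested genes named. MALAT1 stands far to the right at the highest level, below 0 but not past the threshold.

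Genes for proteins that process MALAT1 or fill nuclear speckles included 12 that fell. Of 20 listed and tested with limma, 0 rose (0 higher and 15 lower at an unadjusted p below 0.05), and the median difference was -0.17. Over all tested genes 12.5% fell (19.3% at an unadjusted p below 0.05) and the median was -0.01. The list contains SR proteins and other splicing factors related to the knocked-down gene, and it was chosen with earlier results of these data known. PNN, a nuclear speckle protein linked to exon junction complexes, averaged 48.8 ± 0.605 FPKM in the knockdown and 61.0 ± 1.46 FPKM in the control (-0.32, limma adjusted p = 0.00113). SRSF2, an SR protein and the classical speckle marker, averaged 41.3 ± 0.616 FPKM in the knockdown and 53.3 ± 3.22 FPKM in the control (-0.36, limma adjusted p = 0.00300). POP1, the large subunit of RNase P, which cuts the 3′ ends of MALAT1 and long NEAT1, averaged 17.6 ± 0.622 FPKM in the knockdown and 21.9 ± 1.02 FPKM in the control (-0.30, limma adjusted p = 0.00502). LUC7L3, a U1-associated splicing protein, averaged 19.4 ± 0.400 FPKM in the knockdown and 22.8 ± 0.835 FPKM in the control (-0.22, limma adjusted p = 0.00811). ELAC2, the RNase Z that trims the small tRNA-like RNA released from MALAT1, also fell (-0.18, limma adjusted p = 0.0277). The count of 12 was 7, 4 and 5 without knockdown replicates 1, 2 and 3, and 7, 7 and 8 without control replicates 1, 2 and 3.

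**Figure D3:**
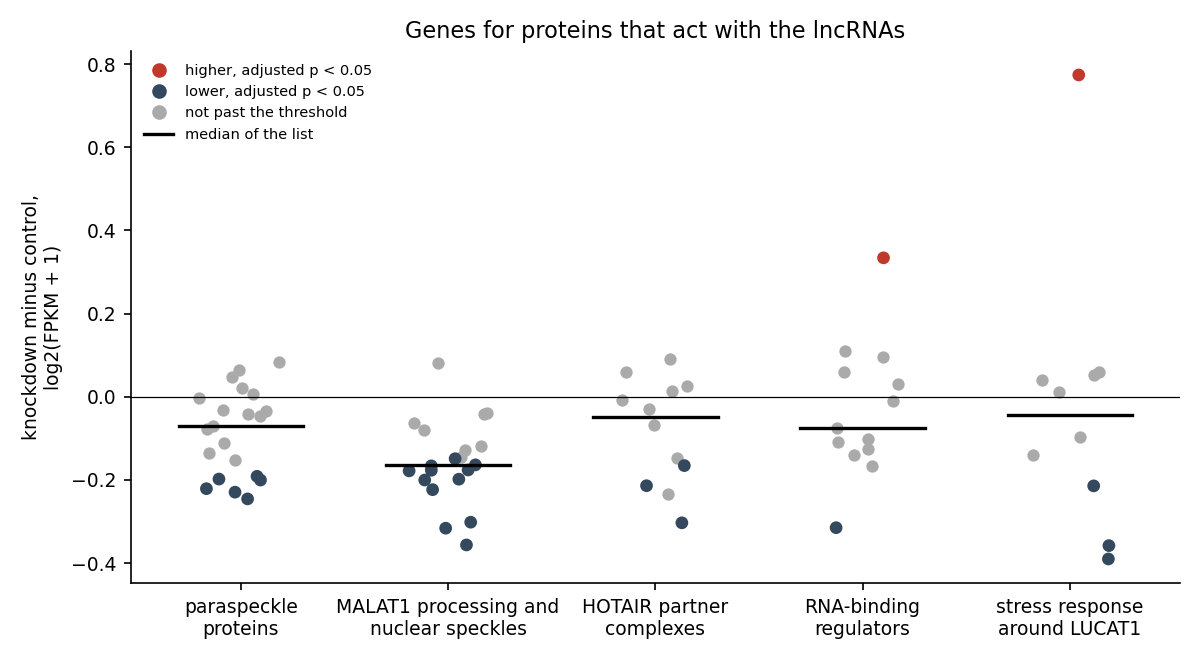
Difference between SRSF10 knockdown and control on the log2(FPKM + 1) scale (vertical axis) for the tested genes of 5 lists of proteins that act with these lncRNAs. Each point is a gene, red and blue for a limma adjusted p below 0.05, black lines are list medians, and horizontal scatter has no meaning. The speckle list has 12 blue points and no red point (median -0.17), and the highest point in the plot is HMOX1 at 0.77.

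LUCAT1 (ENSG00000248323, chr5:91054834-91314547, minus strand) had 3.07, 3.53 and 3.25 FPKM in the knockdown libraries, against 2.72, 2.75 and 2.58 FPKM in the control libraries. All knockdown libraries were above all control libraries by a small margin, as for 20.6% of all tested genes. The means were 3.28 ± 0.230 FPKM in the knockdown and 2.68 ± 0.0904 FPKM in the control (SD, n = 3 each), 22.5% higher. On the log2 scale LUCAT1 rose by 0.22 ± 0.0628 (SE, limma adjusted p = 0.0449), with a 95% interval of 0.07 to 0.37. This call was the least stable of the 3: leaving out any library ended it, with adjusted p-values of 0.0616 to 0.143 by limma, and it held in 4 of 13 alternatives. No exon of another gene overlaps LUCAT1 in GENCODE 29.

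The LUCAT1 promoter is shown because NRF2 is known to act through the antioxidant response element, whose core is TGACNNNGC. The RefSeq entry (GRCh38.p14, chr5:91314353-91314652, minus strand) covers 250 bases before to 50 after the start, and capitals mark a match to the core on the reverse strand.
LUCAT1 promoter: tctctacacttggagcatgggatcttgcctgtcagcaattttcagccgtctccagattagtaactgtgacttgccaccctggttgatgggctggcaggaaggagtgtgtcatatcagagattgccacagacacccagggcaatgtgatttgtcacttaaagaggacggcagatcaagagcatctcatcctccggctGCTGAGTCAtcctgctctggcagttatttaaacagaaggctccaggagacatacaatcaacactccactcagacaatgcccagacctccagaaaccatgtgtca
The match starts 54 bases before the start site and overlaps a match to the AP-1 site TGAGTCA, read on either strand. The core occurs in 13.3% of 34796 RefSeq promoters of this length and the AP-1 site in 4.96%. The cAMP response element TGACGTCA, found in 1.84% of promoters, has no match there. Promoter entries matched LUCAT1, H19, MALAT1 and MEG3 among the 8 genes. An entry of MALAT1 held 2 matches to the antioxidant core, the entries of MEG3 held the cAMP response element once each, and no other match to these motifs was found in the entries of H19, MALAT1 and MEG3. A match is a description of letters and says nothing of binding in these cells.

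A list of stress-response genes joined NRF2, its inhibitor and its targets with ARRDC3 and ARRDC3-AS1, which lie near LUCAT1, and had calls in both directions. Of 12 genes listed, 10 were tested, 1 rose and 3 fell (median -0.04), against 12.6% and 12.5% of all tested genes. HMOX1, the haem oxygenase that NRF2 induces, had 159, 171 and 167 FPKM in the knockdown libraries, against 98.0, 112 and 82.3 FPKM in the control libraries. It rose by 0.77 ± 0.102 (SE, limma adjusted p = 0.00301), and the groups did not overlap. GCLC, the catalytic subunit for glutathione synthesis, averaged 24.2 ± 0.879 FPKM in the knockdown and 32.1 ± 2.49 FPKM in the control (-0.39, limma adjusted p = 0.00490). NFE2L2, which encodes NRF2, averaged 25.2 ± 0.698 FPKM in the knockdown and 29.4 ± 1.91 FPKM in the control (-0.21, limma adjusted p = 0.0246). KEAP1, its inhibitor, averaged 2.65 ± 0.130 FPKM in the knockdown and 3.69 ± 0.313 FPKM in the control (-0.36, limma adjusted p = 0.0114). The NRF2 target NQO1 had 309 ± 6.43 FPKM in the knockdown and 299.6 ± 32.0 FPKM in the control, and TXNRD1 had 738 ± 31.2 FPKM in the knockdown and 732 ± 37.1 FPKM in the control. Neither passed the threshold. The call on NFE2L2 was lost without each of the knockdown replicates 1, 2 and 3, with adjusted p-values of 0.0674, 0.0832 and 0.0550 by limma.

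PVT1 (ENSG00000249859, chr8:127794533-128101253, plus strand) had 1.69, 1.48 and 1.50 FPKM in the knockdown libraries, against 2.34, 2.001 and 2.20 FPKM in the control libraries. Every knockdown library was below every control library, as for 22.0% of all tested genes. The means were 1.56 ± 0.114 FPKM in the knockdown and 2.18 ± 0.170 FPKM in the control (SD, n = 3 each). On the log2 scale PVT1 fell by 0.31 ± 0.0767 (SE, limma adjusted p = 0.0258), with a 95% interval of -0.50 to -0.13. The adjusted p was 0.0832 and 0.0793 without knockdown replicates 2 and 3, and 0.0807 and 0.0609 without control replicates 1 and 3, with differences of -0.28 to -0.31, and 0.0762 with no filter on low values. Exons of PVT1 overlap those of small RNAs and, on the opposite strand, AC103705.1.

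Among the neighbours of PVT1 at 8q24, MYC was lower. MYC, an oncogenic transcription factor whose gene lies 53099 bases before PVT1, had 24.7, 26.2 and 25.4 FPKM in the knockdown libraries, against 35.7, 33.4 and 33.4 FPKM in the control libraries. It fell by 0.41 ± 0.0414 (SE, limma adjusted p = 0.00113), and did so in all 13 alternatives. PCAT2, an lncRNA of the same gene desert, had 1.66, 1.41 and 1.44 FPKM in the knockdown libraries, against 0.119, 0.106 and 0.140 FPKM in the control libraries. It passed the filter through the knockdown libraries alone, so these values are a description. The next tested gene on the other side of PVT1, AC103718.1, lies 1584148 bases away and likewise passed through the knockdown alone (1.56 FPKM in the knockdown and 0.581 FPKM in the control). Of 15 genes listed for this region, 11 had a row, and besides MYC and PCAT2 all of them were under the filter. CASC8 among them averaged 0.160 FPKM in the knockdown and 0.0105 FPKM in the control, and CCAT2 was listed at 0 throughout. On chromosome 8 as a whole, 76 of 459 tested genes were higher and 44 lower.

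H19 (ENSG00000130600, chr11:1995176-2001470, minus strand), a maternally expressed fetal liver RNA, had 2.05, 0.532 and 0.486 FPKM in the knockdown libraries, against 0.912, 1.25 and 0.637 FPKM in the control libraries. The first knockdown library was the highest of all 6 and the other two were the lowest. About 83, 21 and 18 fragments lay behind these values in the knockdown and about 38, 46 and 25 in the control. The ratio of means was 1.10 while the log2 difference was -0.01, and the exact permutation test gave p = 1. H19 was under the filter and was not called in either alternative that tested it. Without knockdown replicate 1 its difference was -0.34.

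HOTAIR (ENSG00000228630, chr12:53962308-53974956, minus strand) was scarce in all libraries but separated the groups. It was listed at 0 in the first knockdown library and had 0.0282 and 0.0301 FPKM in the other two, against 0.187, 0.181 and 0.199 FPKM in the control libraries. These values correspond to 0, 1 and 1 fragments in the knockdown and 7, 6 and 7 in the control, whole numbers to within 0.0147 of a fragment. The sums were 2 fragments in the knockdown and 20 in the control, a depth-adjusted ratio of 0.101 with an exact 95% interval of 0.0114 to 0.415 that covers counting error only. HOTAIR was under the 1 FPKM filter. With a filter of 0.1 FPKM, which it passed through the control libraries alone, it passed the test as lower (-0.22, limma adjusted p = 0.0420), where 6.60% of 20588 genes were lower and 16.3% were lower in every knockdown library. With no filter the adjusted p was 0.0148, where 3.14% of 32280 genes were lower and 11.1% were lower in every knockdown library. The exact permutation p was 0.1, the smallest possible, and genes that every cell uses, such as RMRP, were also listed at 0.

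Among HOTAIR's reported partners, the Polycomb complex PRC2 and the KDM1A and REST complex, 12 genes were tested with limma, 0 rose and 3 fell (0 and 4 at an unadjusted p below 0.05, median -0.05), against 12.6% higher and 12.5% lower over all tested genes. EZH2, the PRC2 methyltransferase, averaged 20.5 ± 0.734 FPKM in the knockdown and 25.5 ± 0.271 FPKM in the control (-0.30, limma adjusted p = 0.00235). RBBP7, a histone-binding subunit, averaged 13.3 ± 0.267 FPKM in the knockdown and 15.6 ± 0.363 FPKM in the control (-0.21, limma adjusted p = 0.00750). RBBP4, its close paralog, had an adjusted p of 0.0434 by limma that was lost without each library except control replicate 3 (0.0959 to 0.129). SUZ12 averaged 27.3 ± 1.01 FPKM in the knockdown and 27.1 ± 1.62 FPKM in the control, and KDM1A averaged 23.9 ± 0.796 FPKM in the knockdown and 24.1 ± 2.27 FPKM in the control, both far from the threshold.

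UCA1 (ENSG00000214049, chr19:15828206-15836326, plus strand) was listed at 0 in all 3 knockdown libraries, against 0.0335, 0.0568 and 0 FPKM in the control libraries, or 2, 3 and 0 fragments. No fold is given against a group at 0. MEG3 (ENSG00000214548, chr14:100779410-100861031, plus strand) had 0.00308, 0.00316 and 0.0101 FPKM in the knockdown libraries, against 0.00299, 0 and 0 FPKM in the control libraries. That is 1, 1 and 3 fragments in the knockdown and 1, 0 and 0 in the control, too few to show a difference at this depth. HULC had no row, but its identifier in the reference table, ENSG00000285219, carries another symbol in the file, LOC100506207. That GENCODE gene spans 858566 bases on chromosome 6, against 1588 bases for HULC in RefSeq, and its values were at most 0.00324 FPKM in the knockdown and 0.00610 FPKM in the control. They cannot be taken as the level of HULC.

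**Figure D4:**
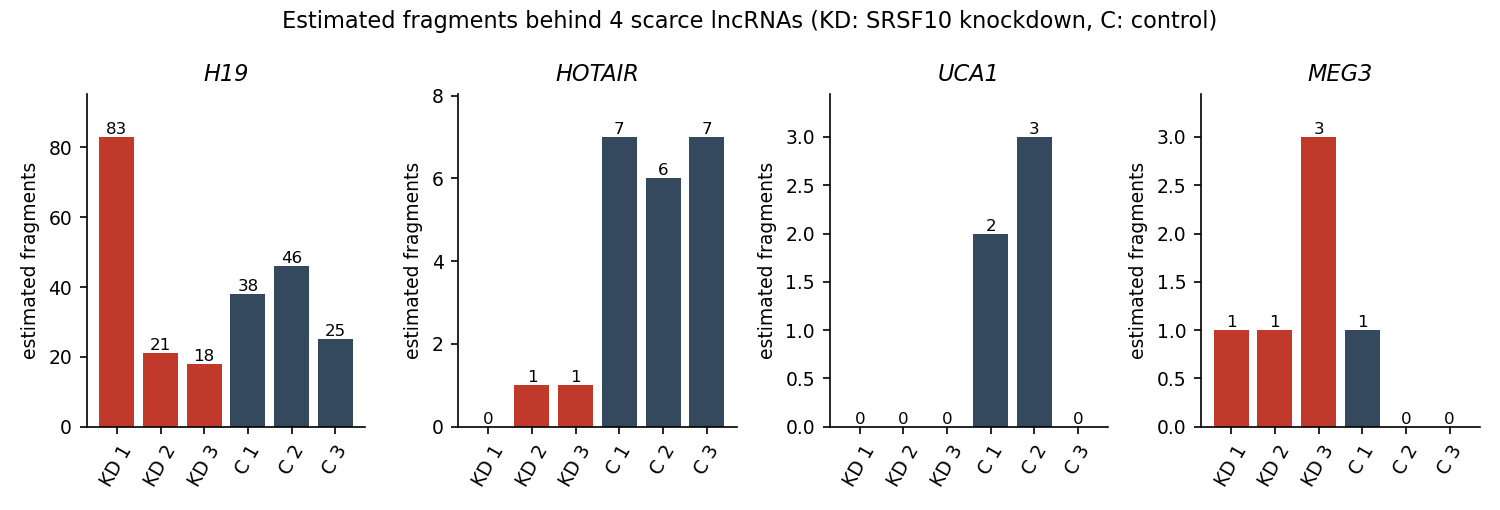
Estimated fragments (vertical axes, each from 0) behind the FPKM values of 4 scarce lncRNAs in 3 SRSF10 knockdown libraries (red, KD) and 3 control libraries (blue, C), with the number above each bar. HOTAIR had 0, 1 and 1 fragments in the knockdown and 7, 6 and 7 in the control, and UCA1 and MEG3 never had more than 3.

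A wider list of lncRNAs that have been linked to cancer was looked up in the same way. Of 55 listed, 53 had a row and 19 were tested, of which 1 rose and 5 fell (median -0.12). Over all tested genes 12.6% rose and 12.5% fell (median -0.01), and over tested lncRNA and ncRNA genes 8.16% and 7.28%. At an unadjusted p below 0.05 by limma, 3 of the list were higher and 6 lower, against 18.2% and 19.3% of all tested genes. GAS5, a growth-arrest lncRNA that hosts small nucleolar RNAs, had 10.9, 11.7 and 12.3 FPKM in the knockdown libraries, against 15.6, 16.8 and 14.9 FPKM in the control libraries. It fell by 0.41 ± 0.0597 (SE, limma adjusted p = 0.00420). TUG1 averaged 12.6 ± 0.455 FPKM in the knockdown and 15.0 ± 0.333 FPKM in the control (-0.23, limma adjusted p = 0.00867). AFAP1-AS1 averaged 3.94 ± 0.344 FPKM in the knockdown and 5.01 ± 0.171 FPKM in the control (-0.29, limma adjusted p = 0.0196). DANCR averaged 5.56 ± 0.640 FPKM in the knockdown and 7.17 ± 0.330 FPKM in the control (-0.32, limma adjusted p = 0.0265). LINC00511, the fifth, was named after its values were seen (-0.39, limma adjusted p = 0.0288). HAGLR, an antisense RNA of the HOXD cluster, was the gene that rose, with 3.18, 2.78 and 3.24 FPKM in the knockdown libraries, against 2.55, 2.01 and 1.85 FPKM in the control libraries (0.38, limma adjusted p = 0.0324). NORAD, the highest of the list in FPKM, averaged 124 ± 3.21 FPKM in the knockdown and 131 ± 6.73 FPKM in the control and was not past the threshold. The count of 5 lower was 2 without control replicate 1 and 2 without control replicate 2, and the single higher call was lost without each library except control replicate 1. GAS5 and TUG1 stayed past the threshold in all 13 alternatives.

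**Figure D5:**
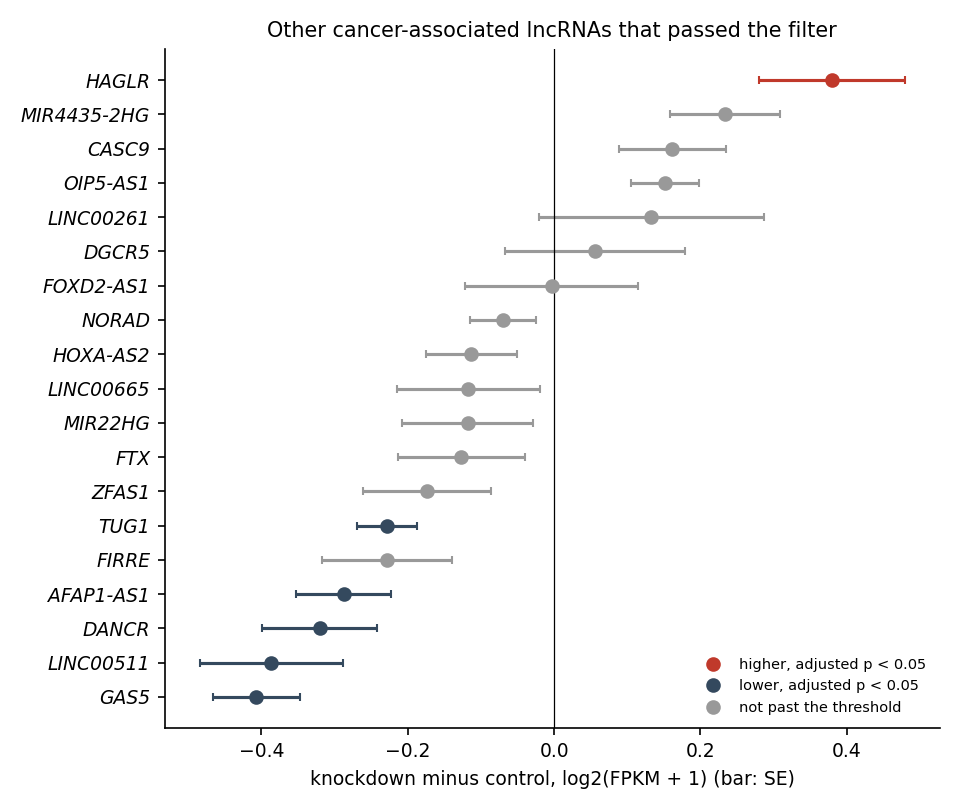
Difference between SRSF10 knockdown and control on the log2(FPKM + 1) scale (horizontal axis, bars are SE) for the 19 tested lncRNAs of the wider list. Red and blue mark a limma adjusted p below 0.05: HAGLR rose by 0.38, and LINC00511, DANCR, AFAP1-AS1, TUG1 and GAS5 fell, GAS5 by 0.41.

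RNA-binding proteins reported to stabilise, degrade or process H19, HULC and other lncRNAs had 1 call in each direction. Of 13 tested with limma, 1 rose and 1 fell (median -0.08), against 12.6% and 12.5% of all tested genes. At an unadjusted p below 0.05 by limma, 2 were higher and 5 lower, against 18.2% and 19.3% of all tested genes. IGF2BP2, an mRNA-stabilising protein, had 15.7, 13.7 and 13.7 FPKM in the knockdown libraries, against 12.1, 10.3 and 11.1 FPKM in the control libraries (0.33, limma adjusted p = 0.0171). HNRNPL, a splicing regulator, averaged 28.2 ± 0.984 FPKM in the knockdown and 35.3 ± 0.493 FPKM in the control (-0.31, limma adjusted p = 0.00189). DICER1 and DGCR8, which process microRNAs, had limma adjusted p-values of 0.0667 and 0.0672 and were not past the threshold.

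Among the nearest tested genes of the other members described here, LYSMD3 and WARS1 were higher and CYP4F12 was lower. AP000769.1, between NEAT1 and MALAT1, averaged 7.62 ± 1.28 FPKM in the knockdown and 5.22 ± 1.10 FPKM in the control (limma adjusted p = 0.0686), and FRMD8, before NEAT1, had an adjusted p of 0.966 by limma. Within 1 Mb of NEAT1, 6 of 58 tested genes were higher and 0 lower, and on chromosome 11 as a whole 83 of 691 were higher and 61 lower. Within 1 Mb of H19, on the same chromosome, 4 of 16 tested genes were higher and 0 lower. The median difference there was 0.18, against -0.01 over the chromosome. Around LUCAT1, LYSMD3 averaged 6.85 ± 0.200 FPKM in the knockdown and 5.68 ± 0.113 FPKM in the control (0.23, limma adjusted p = 0.0100), and ARRDC3, 54177 bases from LUCAT1, was not past the threshold. CYP4F12, before UCA1, averaged 1.61 ± 0.195 FPKM in the knockdown and 3.28 ± 0.479 FPKM in the control (-0.71, limma adjusted p = 0.00419). Within 1 Mb of HOTAIR, 2 of 28 tested genes were higher and 4 lower, and on chromosome 12 as a whole 114 of 692 were higher and 87 lower. Within 1 Mb of UCA1, 0 of 26 tested genes were higher and 7 lower, and on chromosome 19 as a whole 102 of 785 were higher and 58 lower. WARS1, 402605 bases from MEG3, averaged 13.6 ± 0.550 FPKM in the knockdown and 11.7 ± 0.487 FPKM in the control (0.20, limma adjusted p = 0.0251). Its call was lost without knockdown replicates 1 and 3 and without control replicates 1 and 2, at adjusted p-values of 0.0647 to 0.0866 by limma. Within 1 Mb of MEG3, 2 of 8 tested genes were higher and 0 lower, and on chromosome 14 as a whole 36 of 381 were higher and 33 lower.

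The members differed in the features of sequence measured here. SRSF10 is known to bind purine-rich RNA such as AGAGA, so this motif was counted on the sense strand of the longest transcript of each gene, overlaps included. HOTAIR had 5.78 matches per kb, LUCAT1 4.24, MEG3 2.85, MALAT1 2.07, PVT1 1.18, UCA1 1.12, NEAT1 1.01 and H19 0.426. The median of 14994 GENCODE lncRNA genes was 1.89 per kb. HOTAIR, LUCAT1, MEG3 and MALAT1 lay above it, and PVT1, UCA1, NEAT1 and H19 lay below. The part of this motif in the differences between the groups was not tested. GC content ran from 40.3% in MALAT1 to 63.4% in H19, around a median of 46.3%.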

How the data were processed

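RNA from 6 samples labelled Huh7 was sequenced on an Illumina instrument after TRIzol extraction and library preparation with a Vazyme VAHTS V6 kit, per the labels' protocols. FastQC 0.11.9, Trim Galore 0.6.5-1 and the build GRCh38 are named in the submitters' processing notes. Not given in the sources used here were the aligner, the counting program, the strand setting and the way mRNA was selected. The authors deposited FPKM values in a series table and in sample files, which hold the same 60623 values per sample. FPKM are already divided by length and depth, so no count model was run.

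Genes with at least 1 FPKM in at least 3 libraries (12191) were tested with limma 3.58.1 (R 4.3.3) on log2(FPKM + 1) with a mean trend and a term for group. P-values were adjusted by Benjamini-Hochberg over these genes, at a threshold of 0.05. The pseudocount of 1 understates changes of scarce genes. With 3 libraries a group, a gene can pass the filter through 1 group alone. Exact two-sided permutation tests were run on the FPKM of single members. The fit was checked on simulated data.

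Depth was estimated from low FPKM multiplied by GENCODE 29 exon length, for which 86.1% to 86.9% of values of up to 6.5 fragments came within 0.05 of a whole number (10% by chance). Fragment numbers from this are estimates, and intervals on them cover counting error only. Positions, lengths and overlaps are from GENCODE 29 (GRCh38), in which 12146 tested genes were found. Python 3.11.15 with NumPy 2.4.6, pandas 2.3.3, SciPy 1.17.1 and matplotlib 3.10.9 was used.

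The members and lists were chosen with earlier results of these data known. The genes named are the members, SRSF10, up to 4 genes a list with the smallest adjusted p plus any needed for the other direction or for its role, the nearest tested genes on either side, and for each called member the 2 genes with the closest pattern. Genes given with values outside that rule, such as HNRNPK, ELAC2, NQO1, TXNRD1, SUZ12, KDM1A, CASC8, NORAD, DICER1, DGCR8, SERPINA1, APOB and NAP1L4, were chosen after their values were seen. A gene that the rule names is not reported here. Alternatives were no filter, a filter of 0.1 FPKM, a replicate block, a pseudocount of 0.1, each library left out, 2 other scalings and limma without the trend.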

Additional observations from a re-analysis of the deposited data

How the results depend on the processing

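Each of the 13 alternatives kept the sign of the differences of MALAT1, NEAT1, LUCAT1, PVT1, HOTAIR, UCA1 and MEG3, but calls changed. With no filter on low values, the adjusted p by limma was 0.0554 for NEAT1 (0.30), 0.0762 for PVT1 (-0.31) and 0.111 for LUCAT1 (0.22), and HOTAIR passed (-0.22, 0.0148). There 0 members were higher, and 1013 genes were lower in place of 1525. With a filter of 0.1 FPKM, LUCAT1 was lost (0.22, 0.0812), which left 1 member higher. HOTAIR was called there (-0.22, 0.0420), which made 2 members lower. It passed that filter through the control libraries alone and rests on 2 fragments in the knockdown and 20 in the control, so its call is a description. A pseudocount of 0.1 moved the untested differences to -1.28 for HOTAIR, -0.36 for UCA1 and 0.062 for MEG3. Median-of-ratios scaling, rescaling without mitochondrial genes and limma without the trend ended no call among the members.

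Leaving out each library in turn gave 894 to 1352 genes higher, 964 to 1327 lower, 0 to 1 members higher and 0 to 2 lower. The differences ran from -0.36 to -0.19 for MALAT1, 0.26 to 0.38 for NEAT1, 0.18 to 0.25 for LUCAT1 and -0.36 to -0.28 for PVT1. H19, with no call, ran from -0.34 to 0.17. With 2 libraries in a group the filter still asked for 3 libraries, so fewer genes were tested.

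Same-numbered libraries did not deviate together (r = 0.0156, 0.057 and -0.0715), so the numbers were not taken as pairs. With the replicate block, LUCAT1 was not past the threshold (0.22, limma adjusted p = 0.0837), which left 1 member higher, and the counts were 1193 genes higher and 1146 lower. NEAT1 and PVT1 stayed called under the block.

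For the 36 other named genes, 416 of 459 values under an alternative kept their direction and side of the threshold, 42 lost the call, 1 gained it and 0 changed sign. The lower count of the speckle list was 4 to 12, of the paraspeckle list 4 to 6 and of the wider lncRNA list 2 to 5. These list counts and the named genes' values under the alternatives were added after seeing the data. The cause of these changes was not tested.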

Other observations

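Of 18 genes listed for the imprinted region of H19, among them its regulator CTCF, which lies elsewhere, 8 were tested, with 0 higher and 0 lower by limma (1 and 0 at an unadjusted p below 0.05, median 0.10). NAP1L4, a histone chaperone gene of the region, averaged 37.9 ± 1.55 FPKM in the knockdown and 40.4 ± 1.10 FPKM in the control. IGF2, the reciprocally imprinted neighbour of H19, was listed at 0 in all 6 libraries. CDKN1C, a growth inhibitor of the same region, averaged 0.532 FPKM in the knockdown and 1.01 FPKM in the control and was under the filter. None of the 8 genes listed around MEG3 reached it, and DLK1 was listed at 0 throughout. Among 13 HOXC genes, a list added after the values of HOTAIR were seen, HOXC9 alone was tested and averaged 1.32 ± 0.154 FPKM in the knockdown and 1.44 ± 0.0685 FPKM in the control (limma adjusted p = 0.561). HOXC-AS1, an antisense RNA of the cluster, had 0.603, 0.372 and 0.793 FPKM in the knockdown libraries, against 0.822, 0.664 and 1.25 FPKM in the control libraries, with overlap.

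The genes whose 6 values were closest in pattern to a called member, by root mean square difference of centred log2(FPKM + 1), were PDK3 (0.0275) and FAM171B (0.0318) for NEAT1, TPST1 (0.0190) and FLYWCH1 (0.0245) for LUCAT1, and CDK2AP1 (0.0226) and SKP2 (0.0248) for PVT1. SKP2, a ubiquitin ligase subunit, had 9.73, 9.07 and 9.37 FPKM in the knockdown libraries, against 12.4, 11.5 and 11.8 FPKM in the control libraries. The libraries share their depth and scaling, so such closeness is a description of these 6 libraries.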
